A study of Capra hircus with 6 samples.

Results

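The genes described here encode the precursors of neuropeptides made by neurons of the lateral hypothalamus and of other hypothalamic regions. The list held 10 genes, HCRT, PMCH, GAL, NTS, TAC1, PENK, VIP, ADCYAP1, CCK and VGF, named by their goat symbols. For each gene the FPKM of all its transcripts was summed in each library, which gave values for 9 of the 10 genes, out of 20225 genes in the mRNA table. HCRT, the precursor of the orexins, was not analysed here. FPKM divides the fragments of a transcript by its length and by the mapped fragments of the library, so that levels of different genes can be set side by side per length. Values of single libraries are given in the order of replicates 1, 2 and 3.

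Hypothalamus was taken from 3 pubertal female Anhuai goats of 4.5 to 5 months, in the late follicular phase, and from 3 prepubertal female Anhuai goats of 2.5 to 3 months. All goats lived on 1 farm under like conditions, none is described as carrying an introduced allele, and all were killed under pentobarbital anaesthesia. Each library came from 1 goat. Stage and age differed together between the groups and cannot be told apart.

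A neuropeptide is cut from a larger precursor inside dense core vesicles, released from them on firing, and read by G protein-coupled receptors on nearby or distant cells. Neurons that make melanin-concentrating hormone (MCH), from the precursor gene PMCH, sit mainly in the lateral hypothalamus and are known for their part in feeding, sleep and energy balance. Many neurons of this region also make galanin or neurotensin, while substance P, enkephalin, PACAP and cholecystokinin are made in several nuclei and in other parts of the forebrain. In bulk tissue, fewer cells of a type and less RNA per cell cannot be told apart.

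No precursor gene passed the threshold between the stages. In limma, which compared 16397 genes on log2(FPKM + 1), 0 of the 9 genes had an adjusted p-value under 0.05, and over all genes the share past that threshold was 0.0% as well. At an unadjusted p-value under 0.05 there was 1 precursor gene, GAL, against 5.16% of all genes tested, and it was lower in pubertal goats, as were 1.65% of all genes at that threshold. The log2 fold change was below 0 for 8 of the 9 genes (7 with quantile normalization, where ADCYAP1 changed sign) and for 50.2% of all genes tested, with a median of -0.19 over the 9 genes and of -0.00065 over all genes. Stages that did not overlap were found for 1 of the 9 genes, PENK, against 9.75% of all genes, and its pubertal values were the lower ones, as in 3.84% of all genes. In 6 of the 9 genes the standard deviation between goats of 1 stage was larger than the size of the log2 fold change between the stages. In PMCH the highest library stood 3.23-fold above the lowest.

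**Figure D1:**
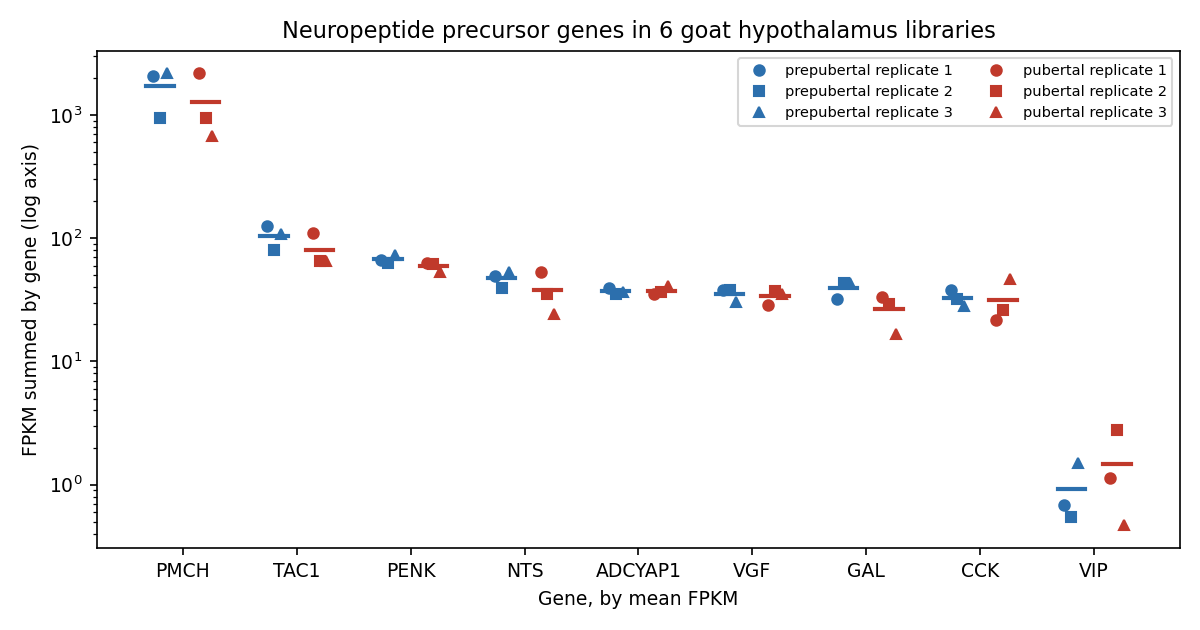
FPKM summed by gene (log axis) for the 9 precursor genes, ordered by mean FPKM, with 3 prepubertal libraries in blue, 3 pubertal libraries in red, marker shapes for replicates and a bar at the mean of each stage. PMCH sits above all others, 5 genes lie close together between 30 and 45 FPKM, VIP is lowest, and the stages overlap in every gene but PENK.

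The values rest on the following libraries. The median log2(FPKM + 1) of genes with a mean of at least 1 FPKM lay between 3.80 and 3.83 in the 6 libraries, and no precursor gene was listed at 0 in any of them. Read counts are not held in the table, so the depth behind a value is unknown. Pubertal replicate 3 stood apart in the summed level of 8 choroid plexus markers, 330.9 FPKM against 7.83 to 60.0 FPKM in the other libraries. TTR alone gave 309 FPKM of that sum. KCNJ13 (14.4 FPKM), FOLR1, KL, CLIC6, SLC4A5 and KCNE2 were also highest in this library, KL at 2.70 against 2.68 FPKM in prepubertal replicate 2. OTX2 was lowest in it. The 9 pituitary markers summed to between 60.8 and 74.9 FPKM in pubertal and between 11.7 and 25.2 FPKM in prepubertal libraries. Most of this gap came from CGA, with 50.1, 62.5 and 39.4 FPKM in pubertal against 2.24, 18.0 and 3.32 FPKM in prepubertal libraries. LHB and TBX19 had log2 fold changes below 0. Of the hypothalamus markers, 10 of 15 had values, summing to between 21.6 and 27.3 FPKM in pubertal and between 21.1 and 29.9 FPKM in prepubertal libraries, and AVP among them was listed at 0 in all libraries. A 0 in this table was not read as absence. Markers of cortex, striatum and thalamus, 15 of 16 with values, summed to between 56.0 and 58.0 FPKM in pubertal and between 43.0 and 57.6 FPKM in prepubertal libraries.

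The levels of the 9 genes spanned a wide range. PMCH had a mean of 1493 FPKM over the 6 libraries and ranked 32 among the 20225 genes by mean FPKM. TAC1 followed with 92.6 FPKM, PENK with 63.1, NTS with 42.5, ADCYAP1 with 37.3, VGF with 34.6, GAL with 33.1, CCK with 32.1 and VIP with 1.19 FPKM. Each of these genes was compared with the next in the order within the libraries. The order was taken from the means of the same 6 libraries, so the p-values below are no separate support for it. PMCH lay above TAC1, TAC1 above PENK, PENK above NTS, and CCK above VIP in 6 of 6 libraries (p = 0.03125 for each pair by an exact permutation of signs, two-sided, which is the smallest p that 6 libraries allow, and 0.0625 after adjustment over the 8 pairs). The order of NTS, ADCYAP1, VGF, GAL and CCK was not settled, since each neighbour was the higher one in only 3 or 4 of 6 libraries, with exact permutation p-values between 0.1875 and 1.

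PMCH (transcript XM_005680529.2, 763 nt) encodes MCH together with neuropeptide EI and neuropeptide GE. PMCH measured 2173, 951 and 673 FPKM in the pubertal goats against 2050, 938 and 2173 FPKM in the prepubertal ones. The libraries thus fell into a high set of 1 pubertal and 2 prepubertal goats and a low set of 2 pubertal goats and 1 prepubertal goat, with nothing between 951 and 2050 FPKM. The stage means were 1266 ± 798 FPKM in pubertal goats against 1721 ± 680 FPKM in prepubertal goats (SD, n = 3 each). On the log2 scale the fold change was -0.53 with a standard error of 0.46 (limma, adjusted p = 0.962). This difference was within the spread between goats, and its 95% interval ran from -1.60 to 0.54 on the log2 scale, which leaves room for a change in either direction. It was -1.01 without pubertal replicate 1 and -0.16 without pubertal replicate 3.

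NTS (XM_005679781.2, 1269 nt), the precursor of neurotensin and neuromedin N, measured 53.6, 35.3 and 24.0 FPKM in the pubertal goats against 49.2, 39.1 and 53.5 FPKM in the prepubertal ones. Pubertal replicate 1 was the highest library of all and pubertal replicate 3 the lowest, so the prepubertal values lay inside the pubertal range. The log2 fold change was -0.38 (SE 0.26, limma adjusted p = 0.962), and it was -0.10 without pubertal replicate 3 and -0.67 without pubertal replicate 1.

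TAC1, the precursor of substance P and neurokinin A, measured 110, 65.5 and 65.3 FPKM in the pubertal goats. The prepubertal goats had 127, 80.6 and 108 FPKM. The pubertal libraries 2 and 3 lay below every prepubertal library, and pubertal replicate 1 lay inside the prepubertal range. The log2 fold change was -0.40 (SE 0.23, limma adjusted p = 0.962), and it was -0.65 without pubertal replicate 1, -0.26 without prepubertal replicate 1 and -0.26 with the most abundant transcript alone. Its unadjusted limma p of 0.116 was 0.0158 with the replicate block, 0.0102 without pubertal replicate 1 and 0.0418 without prepubertal replicate 2.

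PMCH, NTS and TAC1 were split alike over the libraries. In all 3 genes the same 3 libraries, pubertal replicate 1 and prepubertal replicates 1 and 3, were the highest. The lowest of these stood 2.16-fold above the highest of the other libraries in PMCH, 1.26-fold in NTS and 1.34-fold in TAC1. The same 3 libraries were the highest in 6.32% of all genes tested, and this set of libraries was noticed after the values were seen. It held goats of both stages. PENK came near to the same split, but its pubertal replicate 1, at 62.4 FPKM, lay just below prepubertal replicate 2, at 62.6 FPKM, while GAL, VIP, ADCYAP1, CCK and VGF were split otherwise.

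**Figure D2:**
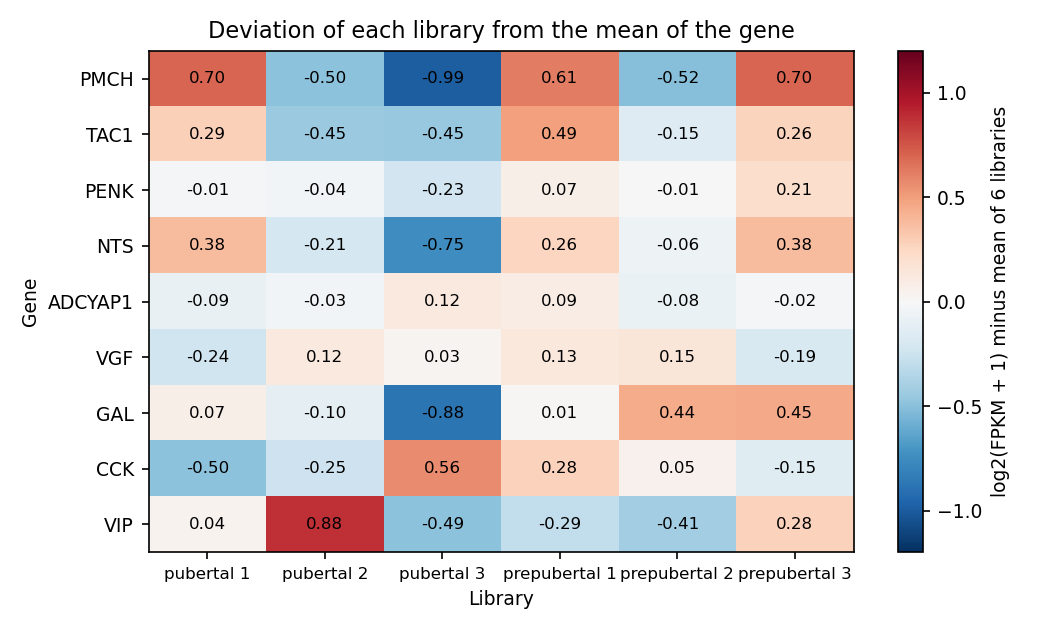
Deviation of each library (columns) from the mean of the 6 libraries for each of the 9 precursor genes (rows), in log2(FPKM + 1), with red above and blue below the mean. PMCH, TAC1 and NTS are above their mean in pubertal replicate 1 and prepubertal replicates 1 and 3, and pubertal replicate 3 is 0.99 below the mean in PMCH and 0.88 below it in GAL but 0.56 above it in CCK.

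The genes whose pattern was most like that of PMCH were DNAJC15, BOLA2B and SLC25A3, among 13499 named genes with a mean of at least 1 FPKM. Their Pearson r with PMCH on log2(FPKM + 1) over the 6 libraries was 0.997, 0.996 and 0.994, and Spearman's rho was 0.943 for each. In all, 41 genes had an r above 0.95. As the PMCH values fell into separate sets, these coefficients describe that split. DNAJC15 measured 54.1, 43.1 and 39.2 FPKM in the pubertal goats against 53.9, 43.4 and 56.0 FPKM in the prepubertal ones, a much narrower range than that of PMCH.

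GAL (XM_013975958.1, 454 nt), the precursor of galanin, had the lowest unadjusted p-value of the 9 genes. It measured 33.4, 29.4 and 16.8 FPKM in the pubertal goats against 31.9, 43.4 and 43.6 FPKM in the prepubertal ones. Prepubertal replicate 1 lay below pubertal replicate 1, so the stages overlapped, and pubertal replicate 3 was far below the other libraries. The stage means were 26.5 ± 8.65 FPKM in pubertal goats against 39.6 ± 6.72 FPKM in prepubertal goats (SD, n = 3 each). The log2 fold change was -0.60 (standard error 0.24), with an unadjusted p of 0.0366 and an adjusted p of 0.938 from limma, and 634 genes had a smaller unadjusted p. Without pubertal replicate 3 the log2 fold change was -0.32 (limma, unadjusted p = 0.0812), and the unadjusted p also rose above 0.05 without prepubertal replicate 2 (0.103) or prepubertal replicate 3 (0.1). The summed level of 11 neuron markers was lowest in pubertal replicate 3, 2758 FPKM against 3054 to 3442 FPKM in the other libraries, and the part of this in the GAL values was not tested.

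PENK (XM_005689084.2, 973 nt), the precursor of the enkephalins, measured 62.4, 61.3 and 53.3 FPKM in the pubertal goats against 66.0, 62.6 and 73.0 FPKM in the prepubertal ones. All pubertal libraries lay below all prepubertal libraries, by a margin of less than 1 FPKM between pubertal replicate 1 and prepubertal replicate 2. The means were 59.0 ± 4.96 FPKM (SD, n = 3) and 67.2 ± 5.29 FPKM (SD, n = 3). On the log2 scale the fold change was -0.19 with a standard error of 0.098 (limma, adjusted p = 0.962), and its 95% interval ran from -0.41 to 0.041. With quantile normalization of the libraries the stages overlapped.

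TAC1 and PENK are both made by hypothalamic neurons and by neurons of the striatum, and their ratio within a library does not depend on the scaling of that library. The ratio of TAC1 to PENK was 1.76, 1.07 and 1.23 in the pubertal goats and 1.92, 1.29 and 1.48 in the prepubertal ones. The ranges overlapped, and the mean log2 ratio was 0.40 ± 0.37 in pubertal goats against 0.62 ± 0.29 in the younger goats (SD, n = 3 each, exact two-sided permutation test, p = 0.4, where 3 against 3 cannot give less than 0.1). The difference of -0.22 was -0.078 with the most abundant transcript alone, and with a library left out it ran from -0.43 without pubertal replicate 1 to -0.063 without prepubertal replicate 1. TAC1 was the higher gene in each of the 6 libraries.

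TAC1 was the only one of the 9 genes with more than 1 transcript in the table. Splicing of TAC1 is known to decide whether neurokinin A is made beside substance P. The transcript XM_005678955.2, 1143 nt long, held between 39.1% and 50.3% of the TAC1 signal, XM_005678953.1 held between 23.0% and 27.2%, XM_005678956.2 between 18.5% and 27.5%, and XM_005678954.2 between 4.77% and 8.85%. For XM_005678955.2 the mean share was 47.7% ± 2.26 in pubertal goats against 43.3% ± 3.79 in the younger goats (SD, n = 3 each, exact permutation test, p = 0.2). For the other transcripts the exact permutation p-values were between 0.2 and 0.8. The division of fragments among transcripts that share exons is an estimate of the assembler and has its own error, which the table does not give.

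**Figure D3:**
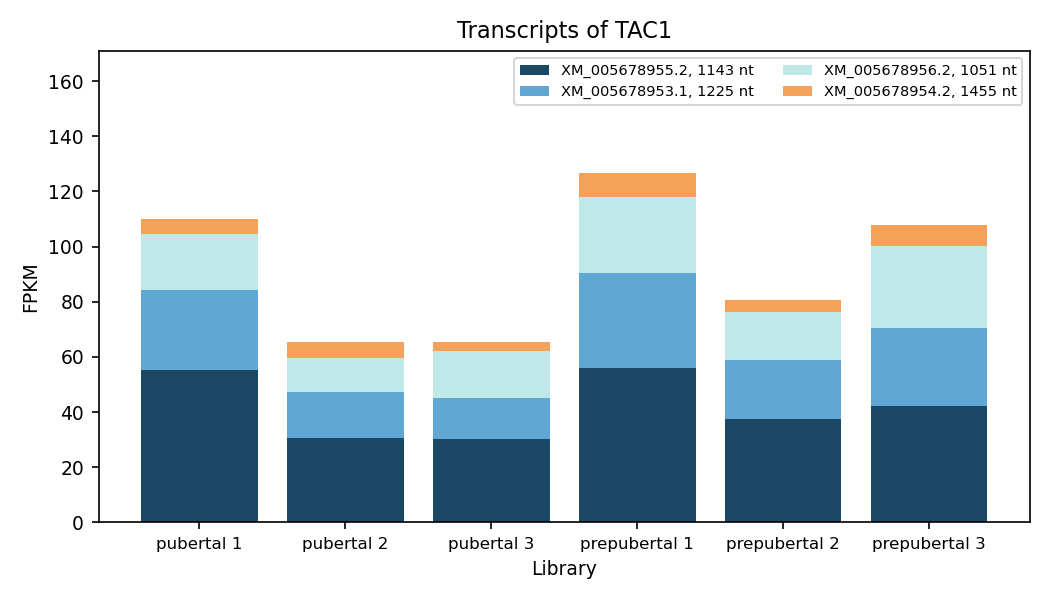
FPKM of the 4 TAC1 transcripts, stacked, in each of the 6 libraries. The total runs from 65.3 to 127 FPKM, and the 1143 nt transcript is the largest part in every library.

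ADCYAP1, CCK and VGF differed little between the stage means. ADCYAP1 (XM_013974346.1, 3622 nt), the precursor of PACAP, measured 34.9, 36.4 and 40.6 FPKM in the pubertal goats against 39.8, 35.3 and 36.8 FPKM in the prepubertal ones. It varied least of the 9 genes, with a coefficient of variation of 6.29% over the 6 libraries, and its log2 fold change was -0.00017 with a 95% interval from -0.21 to 0.21. The stages overlapped, with the highest value in pubertal replicate 3 and the lowest in pubertal replicate 1.

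VGF (XM_013976794.1, 491 nt), a precursor of several peptides in neuroendocrine cells that is induced by neurotrophins, measured 28.9, 37.5 and 35.3 FPKM in the pubertal goats. The prepubertal goats had 37.6, 38.3 and 30.1 FPKM. The values of the stages lay among each other, with a log2 fold change of -0.058 (95% interval from -0.36 to 0.24, adjusted p = 0.979 from limma).

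CCK (XM_005695576.2, 729 nt), the precursor of cholecystokinin, measured 21.8, 26.1 and 46.5 FPKM in the pubertal goats against 37.9, 32.2 and 28.0 FPKM in the prepubertal ones. The pubertal goats held both the lowest and the highest value, and the log2 fold change was -0.12 with all libraries (95% interval from -0.70 to 0.46). It was -0.43 without pubertal replicate 3 (limma, unadjusted p = 0.023) and 0.099 without pubertal replicate 1. The highest value was in pubertal replicate 3, the library in which PMCH, GAL, NTS, TAC1, PENK and VIP were lowest. These 6 of 9 genes compare with 21.4% of all genes tested that had their lowest value in that library. The summed choroid plexus markers were highest and the summed neuron markers lowest in it. Of the single choroid plexus markers, OTX2 was lowest there and the others were highest. Of the neuron markers, RBFOX3, ENO2, SYN1 and NEFM were lower in other libraries and the others were lowest there. The part of these cells in the precursor values was not tested.

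VIP (XM_005684922.2, 1595 nt), the precursor of vasoactive intestinal peptide, was near the lower end of what could be compared. It measured 1.13, 2.80 and 0.469 FPKM in the pubertal goats against 0.690, 0.551 and 1.51 FPKM in the prepubertal ones. The log2 fold change of 0.28 (SE 0.33, limma adjusted p = 0.969) rested on pubertal replicate 2, and it was -0.084 without that library. The prepubertal values lay inside the pubertal range.

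**Figure D4:**
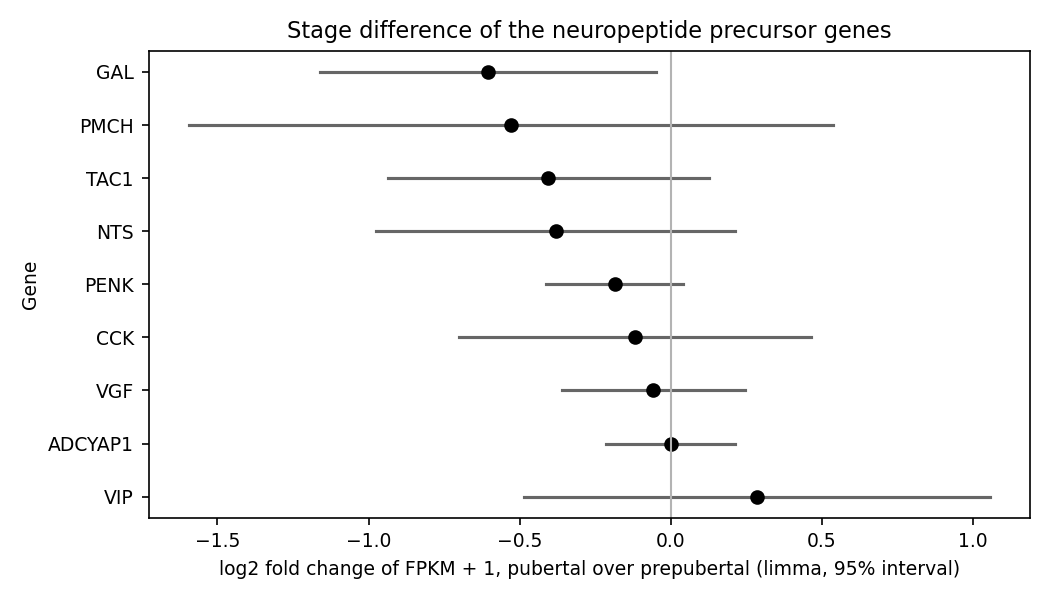
Log2 fold change of FPKM + 1, pubertal over prepubertal, for the 9 precursor genes (points), with 95% intervals from limma (lines). The interval of GAL, from -1.16 to -0.048, is the only one that leaves out 0, and it is not adjusted for the 16397 genes tested.

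The spread between goats of one stage was compared with that of the 8116 genes that had a mean of at least 10 FPKM, whose median standard deviation within stages was 0.135 on the log2(FPKM + 1) scale. For PMCH it was 0.778, above that of 99.4% of these genes. GAL had 0.399, NTS 0.430, TAC1 0.380 and CCK 0.419, above 97.1% to 98.0% of these genes. VGF had 0.189, above 78.1%. PENK with 0.117 and ADCYAP1 with 0.0976 were below the median, although their levels lay among those of the more variable genes.

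The receptors of these peptides were read in the same libraries. Of 18 receptor genes, all 18 had a mean of at least 0.1 FPKM, 0 passed the adjusted threshold and 0 an unadjusted p-value under 0.05, with a median log2 fold change of 0.028. The orexin receptors were measured although their ligand was not, with HCRTR2 at 7.65 ± 0.641 FPKM in pubertal goats against 7.44 ± 0.912 FPKM in prepubertal goats (SD, n = 3 each). HCRTR1 measured 1.62, 2.33 and 1.57 FPKM in the pubertal goats against 1.52, 1.24 and 1.27 FPKM in the prepubertal ones. It was the only receptor gene whose stages did not overlap (5.91% of all genes had all pubertal above all prepubertal values), with a log2 fold change of 0.27 (SE 0.14, limma adjusted p = 0.962) that was 0.15 without pubertal replicate 2.

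The receptor of MCH, MCHR1, had 3.19 ± 0.546 FPKM in pubertal goats against 3.40 ± 0.275 FPKM in prepubertal goats (SD, n = 3 each), a difference within the spread between goats. Galanin is read by GALR1, which had a log2 fold change of -0.26 (SE 0.16, limma adjusted p = 0.962), and by GALR2 and GALR3, which lay between 0.328 and 1.90 FPKM. CCKBR, the cholecystokinin receptor of the brain, measured 3.52, 3.67 and 3.58 FPKM in the pubertal goats. The prepubertal goats had 5.86, 5.88 and 3.13 FPKM, so that 2 goats stood above all others and the third below.

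The most abundant receptor genes were SORT1, NTSR2 and ADCYAP1R1. SORT1 encodes sortilin, which binds neurotensin and many other proteins, and had 87.3 ± 9.28 FPKM in pubertal goats against 88.2 ± 4.47 FPKM in prepubertal goats (SD, n = 3 each). NTSR2, a neurotensin receptor known from astrocytes as well as neurons, had 84.3 ± 25.5 and 71.9 ± 12.8 FPKM (SD, n = 3 each), with its highest value, 113 FPKM, in pubertal replicate 2. ADCYAP1R1, the receptor of PACAP, had 67.1 ± 5.53 and 65.2 ± 2.23 FPKM (SD, n = 3 each). The VIP receptor VIPR2, the substance P receptor TACR1 and the opioid receptors OPRM1 and OPRD1 had stage means between 1.77 and 4.66 FPKM, and none passed the test.

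The enzymes and vesicle proteins that turn precursors into peptides were compared next. Of 24 genes, 0 passed the adjusted threshold and 0 an unadjusted p-value under 0.05. The log2 fold change was below 0 for 18 of the 24 (14 with quantile normalization), with a median of -0.071, and the stages did not overlap in 1, CADPS2, with the pubertal values below (3.84% of all genes). SCG2, a granin of dense core vesicles, measured 811, 685 and 591 FPKM in the pubertal goats against 831, 870 and 765 FPKM in the prepubertal ones. On the log2 scale the fold change was -0.25 with a standard error of 0.14 (limma, adjusted p = 0.962). CADPS2, a priming factor of these vesicles, had 30.9 ± 0.785 FPKM in pubertal goats against 34.8 ± 2.81 FPKM in prepubertal goats (SD, n = 3 each). The synaptic vesicle gene RAB3A and the monoamine transporter gene SLC18A2 had log2 fold changes of -0.22 and 0.21, both with an adjusted p of 0.962 from limma. The 11 neuron markers tested all had a log2 fold change below 0 (8 of them with quantile normalization), with a median of -0.15, and 0 of them had an unadjusted p-value under 0.05. Their part in the direction of the precursor genes was not tested.

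Other peptide precursors and genes shared with orexin or MCH neurons were taken from a further pair of lists. Of 19 related precursor genes tested, 0 passed the adjusted threshold, and at an unadjusted p-value under 0.05 there was 1 higher, POMC (3.51% of all genes were higher), and 2 lower, AGRP and GRP (1.65% of all genes were lower). GRP, the precursor of gastrin-releasing peptide, measured 2.01, 2.72 and 3.51 FPKM in the pubertal goats against 4.47, 5.42 and 3.66 FPKM in the prepubertal ones, and its pubertal values all lay below, as in 3.84% of all genes (log2 fold change -0.57, SE 0.18, limma adjusted p = 0.822). The unadjusted p of GRP rose above 0.05 without pubertal replicate 1 or prepubertal replicate 2, and that of AGRP without pubertal replicate 2 or prepubertal replicate 1 or 2. For POMC it did so without pubertal replicate 2 or 3 or prepubertal replicate 2 or 3, and the log2 fold change of 1.83 was 0.84 without pubertal replicate 3. The unadjusted limma p of POMC was also above 0.05 with quantile normalization (0.0534), no trend (0.0527), no minimum FPKM (0.0645) or the most abundant transcript alone (0.0508). AGRP and POMC, of the feeding circuit, varied more between libraries than PMCH. AGRP lay between 5.69 and 28.3 FPKM in pubertal and between 22.3 and 176 FPKM in prepubertal libraries, and POMC reached 429 FPKM in pubertal replicate 3 while the other libraries ran from 22.9 to 85.1 FPKM.

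Of 12 genes listed as shared with orexin or MCH neurons, 0 passed the adjusted threshold. At an unadjusted p-value under 0.05 there was 1, in the lower direction (1.65% of all genes). In bulk tissue the values of these genes are not those of orexin or MCH neurons alone. The gene at that threshold was SLC32A1, the vesicular GABA transporter. SLC32A1 measured 14.3, 15.0 and 11.5 FPKM in the pubertal goats against 16.0, 16.9 and 16.9 FPKM in the prepubertal ones (log2 fold change -0.27, SE 0.11, limma adjusted p = 0.958). Its unadjusted limma p of 0.0423 was 0.0658 with the replicate block, and it also rose above 0.05 without pubertal replicate 3, where the log2 fold change was -0.17, and without each of the prepubertal libraries. CARTPT, a precursor that many MCH neurons also make, measured 44.0, 62.0 and 38.7 FPKM in the pubertal goats against 43.1, 32.9 and 31.8 FPKM in the prepubertal ones, and did not share the library order of PMCH. Its log2 fold change was 0.40 (SE 0.18, limma adjusted p = 0.962). LHX9, a transcription factor of orexin neurons, was at or below 0.396 FPKM in every library.

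Several precursor genes, VGF, PENK and ADCYAP1 among them, are known to respond to neuronal activity, and 24 activity-regulated genes were therefore set beside them. At an unadjusted p-value under 0.05, 12 of the 24 were higher in pubertal goats and 0 lower, where 3.51% of all genes tested were higher, and 0 passed the adjusted threshold. FOS, the classical marker of recent firing, measured 26.8, 31.9 and 19.0 FPKM in the pubertal goats against 14.0, 13.9 and 11.1 FPKM in the prepubertal ones (log2 fold change 0.92, SE 0.18, limma adjusted p = 0.660). NR4A1, an orphan nuclear receptor of the same early response, had a log2 fold change of 0.98 (SE 0.16, limma adjusted p = 0.318). The median log2 fold change was 0.41 over the activity-regulated genes and -0.19 over all 9 precursor genes. VGF, PENK and ADCYAP1 alone had -0.058, -0.19 and -0.00017. A link between the activity-regulated genes and the precursor genes was not tested, nor was the cause of the higher values.

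**Figure D5:**
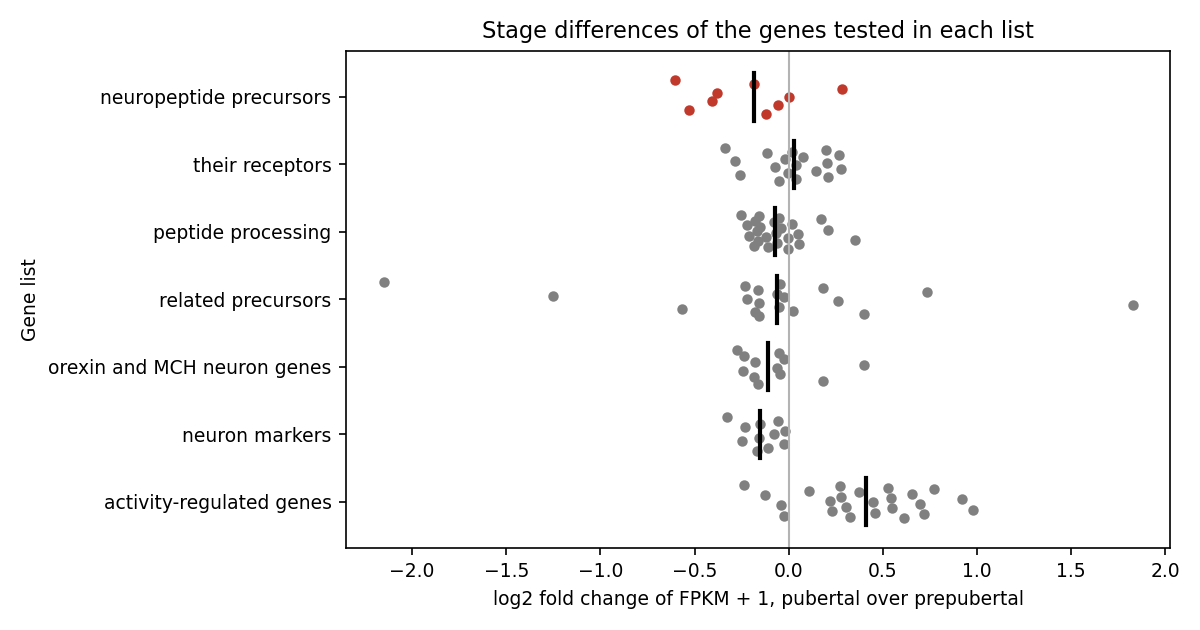
Log2 fold change of FPKM + 1, pubertal over prepubertal, of every tested gene (points) in 7 gene lists, with the median of each list as a black line. The 9 precursor genes (red) have a median of -0.19, their receptors lie around 0, all 11 neuron markers lie below 0 (8 with quantile normalization), and the activity-regulated genes have a median of 0.41.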

How the data were processed

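Hypothalamus RNA of 3 pubertal and 3 prepubertal goats was sequenced after rRNA removal as strand-specific paired-end libraries. The authors used TopHat for alignment and both Scripture and Cufflinks for assembly, and they deposited FPKM per transcript and library, without read counts. The labels name Cufflinks 2.1.1 and Cuffdiff 2.1.1. The genome build is not given in the sources used here. The authors' table of comparisons gave transcript length (nt), gene identifiers, group FPKM, fold changes, p-values and q-values, of which only the length and identifiers were used.

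FPKM was summed by gene, and 19083 of 20225 genes (94.4%) were named from a RefSeq table of the ARS1.2 assembly, used for names only. Of 30679 rows, 1 had no identifier and was left out. Genes with a mean of at least 0.1 FPKM were tested with limma 3.58.1 in R 4.3.3 (trend, two-sided, Benjamini-Hochberg adjustment, threshold 0.05) on log2(FPKM + 1), a scale that understates changes of low genes. Single ratios, shares and orders used exact permutation tests that went through every arrangement (Python 3.11.15 with pandas 2.3.3 and numpy 2.4.6). The adjustment over neighbouring pairs and Spearman's rho came from scipy 1.17.1, and the plots from matplotlib 3.10.9. On simulated data for the comparison of stages over 16397 genes, limma recovered 72% of genes changed by 1 and 97% of those changed by 2 on the log2 scale. It also called 12 unchanged genes. The changed genes were drawn at random from those with a mean of at least 1 FPKM, each with its own spread. PMCH, GAL, NTS, TAC1 and CCK varied more than most genes, so these shares cannot be taken for them.

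The precursor genes and the gene lists were chosen with earlier results of these data known. Named were the precursor genes, their receptors, up to 4 genes of each further list with the smallest unadjusted p, and the 3 genes most like PMCH. GALR2, LHX9 and AVP were named for their level after the values were seen. Same-numbered goats of the 2 stages were not paired. The ratio of HCRT to PMCH was not analysed here.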

Additional observations from a re-analysis of the deposited data

How the results depend on the processing

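Alternatives tried were the replicate number as a block, quantile normalization, libraries centred on their medians, 0.1 as the pseudocount, a minimum mean of 1 FPKM or none, a limma fit with no trend, the most abundant transcript of each gene, leaving out transcripts under 300 nt, and leaving out each library in turn. The count of 0 precursor genes past the adjusted threshold held under each of these. The count of 1 at an unadjusted p under 0.05 was 2 with the replicate block, which added TAC1, and between 0 and 4 with a library left out. It was 4 (PMCH, GAL, NTS and TAC1) without pubertal replicate 1 and 0 without prepubertal replicate 3. The count stayed at 1 without pubertal replicate 3 and without prepubertal replicate 2, but the gene was CCK and TAC1 there, in place of GAL. The count of 1 precursor gene without overlap of the stages was 0 with quantile normalization and between 1 and 4 with a library left out. The share of all genes without overlap was not taken under these settings. A stage with fewer libraries is separated from the other more easily, so these counts cannot be set against the 9.75% of all 6 libraries. Over all genes, the count of 0 past the adjusted threshold was 1 with the replicate block and between 0 and 4 with a library left out. At an unadjusted p under 0.05 there were 846 genes, 575 higher and 271 lower in pubertal goats. With a library left out there were between 500 and 2220, between 336 and 981 of them higher and between 164 and 1239 lower, with the lowest counts without prepubertal replicate 1 and the highest without pubertal replicate 1. With quantile normalization the split was 462 higher and 377 lower.

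Some log2 fold changes changed sign, many of them near 0 with all libraries, but also those of VIP (0.28), NTSR2 (0.20) and CCK (-0.12). Quantile normalization put ADCYAP1 at 0.036, HCRTR2 at -0.0056, SORT1 at 0.034, TACR1 at -0.069 and VIPR2 at -0.0063. With a library left out, the ranges were -0.084 to 0.60 for VIP, -0.060 to 0.046 for ADCYAP1, -0.43 to 0.099 for CCK, -0.17 to 0.049 for VGF, -0.030 to 0.12 for HCRTR2, -0.18 to 0.0039 for MCHR1, -0.032 to 0.36 for NTSR2, -0.10 to 0.036 for SORT1, -0.088 to 0.095 for TACR1, -0.075 to 0.087 for OPRM1, -0.078 to 0.24 for VIPR2 and -0.023 to 0.092 for ADCYAP1R1. PMCH ran from -1.01 to -0.16, GAL from -0.79 to -0.32, NTS from -0.67 to -0.10 and TAC1 from -0.65 to -0.26. The cause was not tested. Same-numbered libraries of the stages had correlations of their deviations of -0.029, -0.11 and 0.088, so that they shared only a number. The ratio of HCRT to PMCH was not run. Without read counts, the counting error of VIP and other low genes is unknown, and 3 goats a stage limit what could be seen.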
